A study of Bos taurus with 6 samples.

Results

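The adaptors and kinases of Toll-like receptor signalling are the proteins that carry a signal from the receptor tail to the kinases that switch on NF-kB, MAP kinases and interferon regulatory factors. LY96, counted with them here, binds lipopolysaccharide beside TLR4 and is itself neither an adaptor nor a kinase. The members here were 10 genes, LY96, MYD88, TIRAP, TICAM1, TICAM2, IRAK1, IRAK2, IRAK3, IRAK4 and MAP3K7. Their probes were those whose gene name in the array files, or bracketed symbol in the probe description, was one of these symbols. This gave 22 of the 43653 probes besides controls. Probes above background on 3 or more of the 6 arrays were tested, and 19 of the 22 were, from 9 of the 10 genes. Levels were measured in jugular vein whole blood of 6 female cattle, of which 3 were fat-1 transgenic and 3 were wild type, on Agilent 1-colour arrays of 1 animal each. Since the labels name no animals beyond these numbers, p-values measure the spread between these samples. Fat-1 is a nematode desaturase that makes omega-3 from omega-6 fatty acids. The animals were 3 years old except fat-1 replicate 1, at 3.5 years. The promoter of the transgene, the breed and the number of founder animals are not given in the sources used here.

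Toll-like receptors recognise microbial lipids, proteins and nucleic acids, and most of them, like the interleukin-1 receptors, recruit the adaptor MYD88 through a shared TIR domain. MYD88 gathers IRAK4 with IRAK1 or IRAK2 into a complex that leads through TRAF6 to the kinase MAP3K7, also called TAK1. A second route from TLR3 and TLR4 runs through TICAM1 (TRIF) to interferon genes. Monocytes and neutrophils are the blood cells best known for this pathway, and IRAK3 (IRAK-M), a relative without effective kinase activity that restrains it, is best known from monocytes and macrophages.

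None of the 19 measured probes differed between fat-1 and wild type blood after adjustment over all probes. IRAK3, the brake of the pathway, stood highest relative to its spread, though not in every setting. Its difference was 0.52 ± 0.22 (SE) on the log2 scale. The 2 IRAK4 probes and the 4 MAP3K7 probes also had differences above 0, between 0.30 and 0.84, and the TICAM1 and IRAK1 probes lay below 0, between -0.25 and -0.52. MYD88, LY96, TICAM2 and IRAK2 probes lay between -0.35 and 0.175. By limma with Benjamini-Hochberg adjustment, 0 of 19 passed an adjusted p of 0.05, against 0.172% of all 26810 probes tested (0.0783% higher and 0.0932% lower in fat-1 blood). One member probe, IRAK3, had an unadjusted p under 0.05, against 12.8% of all probes (6.18% higher and 6.66% lower). The groups did not overlap at 2 of the 19 probes, both higher in fat-1 blood, against 19.6% of all probes (6.94% higher and 12.7% lower). The difference was above 0 at 9 of the 19, against 44.7% of all probes. The median difference was -0.05 for the member probes and -0.06 for all probes, and the median within-group SD was 0.32 and 0.31. All fat-1 arrays came from 1 slide and all wild type arrays from another, so that slide and genotype cannot be told apart.

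Probes are numbered within a gene from the 3′ end on the files' map, except those of LY96, which are unmapped and numbered in no order of position, and all are 60 bases long. The sequences of 6 probes are printed. The 5 mapped ones are among the inner probes, here of MYD88, IRAK1, IRAK4 and MAP3K7, that are compared with the probe nearest the 3′ end. LY96 probe 1 is among the LY96 probes, to none of which the files give a position. The other inner probes and the other LY96 probes are not printed. They are given 5′ to 3′ from the array files, all in lower case because no motif in them is singled out, with positions on Btau_3.1 where the files map them.
LY96 probe 1 (unmapped): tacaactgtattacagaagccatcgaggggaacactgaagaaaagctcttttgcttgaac
MYD88 probe 2 (chr22:11729507-11729566, plus strand): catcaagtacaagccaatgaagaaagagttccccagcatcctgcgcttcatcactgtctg
MYD88 probe 3 (chr22:11729153-11729212, plus strand): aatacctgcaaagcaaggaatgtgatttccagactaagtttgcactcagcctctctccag
IRAK1 probe 2 (chrX:23480707-23481890, minus strand): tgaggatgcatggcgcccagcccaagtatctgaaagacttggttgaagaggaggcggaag
IRAK4 probe 2 (chr5:39921686-39922133, minus strand): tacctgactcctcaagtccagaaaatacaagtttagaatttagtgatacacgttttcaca
MAP3K7 probe 4 (chr9:62359631-62360792, plus strand): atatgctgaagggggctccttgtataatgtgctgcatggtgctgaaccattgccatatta
The files place IRAK1 probe 2 over 1184 genomic bases, IRAK4 probe 2 over 448 and MAP3K7 probe 4 over 1162, so the letters of these 3 align in separate pieces, as across an exon junction. The single IRAK3 probe (chr5:51485045-51485104, minus strand) opens with the 30 bases cggtttctgatgaggataaagaagaaagca. The letters AATAAA, the common polyadenylation signal, searched in the strand of the probe, are in 2 of the 22 member probes, MYD88 probe 1 and TICAM2 probe 1, and in 9.35% of all probes on the array. Median GC content was 44.2% for the member probes and 45.0% for all probes. Which exon or UTR a probe lies in was not determined, since no gene models of Btau_3.1 were used here.

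Levels are log2 processed intensity relative to the 75th percentile of the same array, so a probe at 0 is at that percentile. Levels of different probes are not compared as amounts of transcript. LY96 is the MD-2 protein that binds lipopolysaccharide beside TLR4. LY96 probe 1 stood at 1.64, 2.32 and 2.36 in fat-1 animals 1 to 3 and at 2.02, 1.975 and 1.80 in wild type animals 1 to 3. The lowest and the highest animal were both fat-1, and the groups overlapped. The difference was 0.175 ± 0.25, with a 95% interval of -0.40 to 0.75. LY96 probe 3, designed to an expressed sequence tag, had a difference of -0.08 ± 0.23. LY96 probe 2 was not well above background in any animal, and the transcript it cites is not in the RefSeq table used here, so that only its name in the files ties it to LY96.

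MYD88 is the adaptor of nearly all Toll-like and interleukin-1 receptors. Probe 1, at chr22:11731208-11731267, stood at 5.32, 5.54 and 5.38 in fat-1 animals and at 5.585, 5.73 and 5.06 in wild type animals. All fat-1 values fell inside the wild type range, and the difference was -0.048 ± 0.24, with a 95% interval of -0.59 to 0.50. Probe 3 had a difference of 0.006 ± 0.265 (95% interval -0.60 to 0.61). At probe 2 the values were -1.655, -2.78 and -2.29 in fat-1 animals and -1.41, -2.18 and -2.07 in wild type animals, with a difference of -0.35 ± 0.34. Leaving out 1 animal in turn moved it between -0.64 and -0.08. With normexp background correction or quantile scaling, or when the authors' values were used, both MYD88 probes 1 and 3 turned sign, and probe 3 did so with median scaling too. TIRAP, the bridge between MYD88 and TLR2 or TLR4, was not well above background in any animal at its only probe (chr29:31229259-31229318). Its processed intensity was 7.6 to 17.7, where the dimmest probe well above background on an array read 21.4 to 37.1.

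TICAM1 and TICAM2 are the adaptors of the interferon route. The TICAM1 probe (chr7:17902210-17902269) stood at -2.14, -1.89 and -1.59 in fat-1 animals and at -1.19, -1.335 and -1.85 in wild type animals. Wild type animals 1 and 2 were above all fat-1 animals, and wild type animal 3 was among them. The difference was -0.42 ± 0.26, with a 95% interval of -1.01 to 0.18 (limma adjusted p = 0.471), and over 16 alternative settings it lay between -0.68 and -0.28. The lower end came from the default array weights, an estimate that did not converge, and the next lowest was -0.62 with weights gene by gene. TICAM2 links TLR4 to TICAM1. At TICAM2 probe 1, near the 3′ end at chr10:3939536-3939595, fat-1 animals stood at 1.08, 1.45 and 1.47 and wild type animals at 1.635, 1.76 and 1.47. The difference of -0.285 ± 0.22 had a 95% interval of -0.78 to 0.21. Probe 2 was the most variable member probe, with a within-group SD of 0.96, because wild type animal 1 stood at -1.76 against -3.92 and -3.83 in the other wild type animals. Its difference was -0.135 ± 0.57, and 0.57 without wild type replicate 1.

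**Figure D1:**
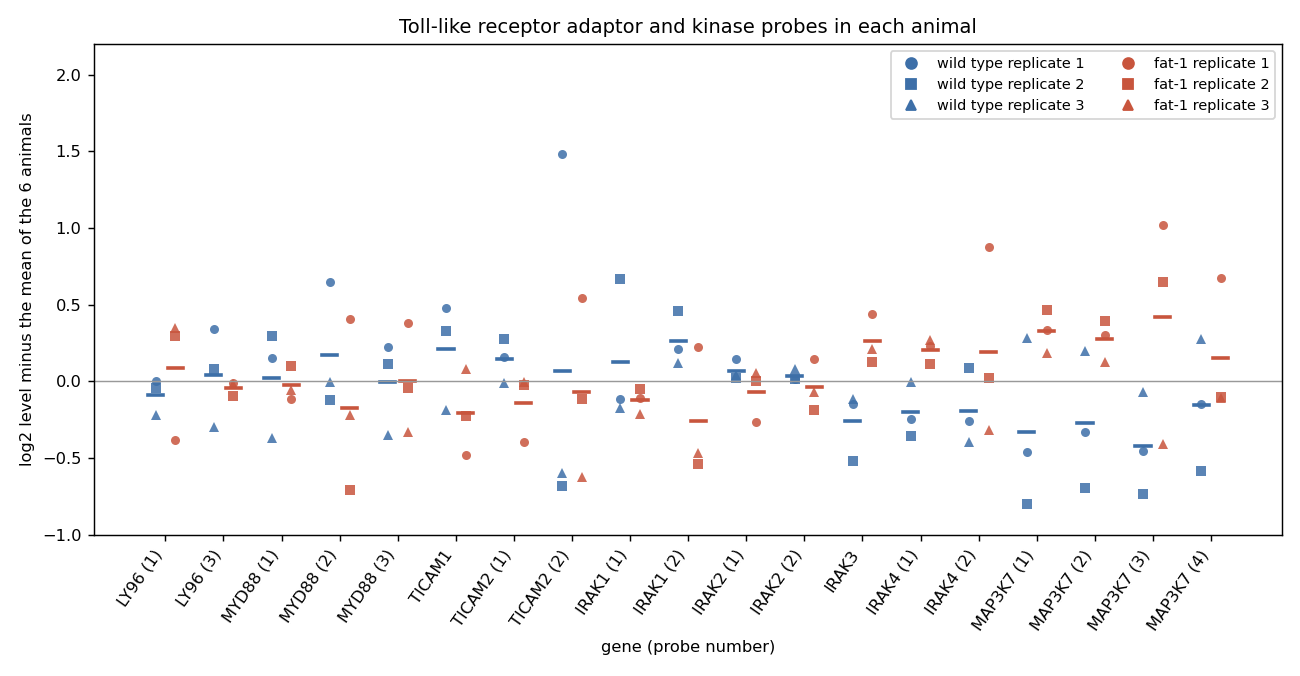
Log2 level of each measured member probe in each animal, minus the mean of the 6 animals at that probe (y axis), for the 19 probes (x axis). Probes are numbered from the 3′ end, except those of LY96, which are unmapped. Points are single animals, short bars are group means, and the 3 fat-1 animals stand above all wild type animals only at IRAK3 and IRAK4 probe 1.

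IRAK4 is the first kinase bound by MYD88 and IRAK1 its main substrate. IRAK4 probe 1 (chr5:39903916-39903975) stood at 1.31, 1.19 and 1.34 in fat-1 animals and at 0.83, 0.72 and 1.075 in wild type animals. The groups did not overlap, and the lowest fat-1 animal was 0.11 above the highest wild type animal. The difference was 0.405 ± 0.20, with a 95% interval of -0.062 to 0.87 (limma adjusted p = 0.417). IRAK4 probe 2 had -1.35, -2.21 and -2.545 in fat-1 animals and -2.49, -2.14 and -2.62 in wild type animals. Fat-1 replicate 1 alone stood apart, and the difference of 0.38 ± 0.32 was 0.042 without that animal.

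IRAK1 lay the other way. At IRAK1 probe 2, fat-1 animals stood at -1.995, -2.76 and -2.69 and wild type animals at -2.01, -1.76 and -2.10. Fat-1 replicate 1 was within the wild type range and the other 2 fat-1 animals were below it. The difference was -0.52 ± 0.26 (95% interval -1.12 to 0.076, limma adjusted p = 0.4165). At IRAK1 probe 1 (chrX:23477723-23477782) the difference of -0.25 ± 0.27 came with wild type replicate 2 at 4.98 and the other 5 animals between 4.105 and 4.26, and it was 0.021 without that animal. IRAK2, which sustains signalling after IRAK1, had differences of -0.14 ± 0.20 and -0.075 ± 0.20 at probes 1 and 2, with 95% intervals of -0.60 to 0.32 and -0.53 to 0.38. Of the 19 probes these 2 had the smallest standard errors. Probe 3 of IRAK2 was not well above background in any animal, with processed intensity of 11.1 to 21.7.

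At the single IRAK3 probe, fat-1 animals stood at -3.02, -3.34 and -3.25 and wild type animals at -3.61, -3.98 and -3.58. All fat-1 animals were above all wild type animals, by 0.24 at the nearest pair. The difference of 0.52 ± 0.22 had a 95% interval of 0.022 to 1.02 (limma adjusted p = 0.3805). The signal is low, with processed intensity of 38.8 to 111.9. With an intensity trend the standard error was 0.311 and the limma unadjusted p 0.122, against 0.042 without it. MAP3K7 probe 1 was then the only member probe under 0.05. For IRAK3 the limma unadjusted p was 0.081 with median scaling and 0.032 with quantile scaling. The difference was -0.059 with normexp background correction, a setting that starts from the raw signal and also adds an offset of 50, and the parts of these changes were not separated. Of the 6 fits that leave out 1 animal, only that without wild type replicate 3 had an unadjusted p under 0.05 at IRAK3, and the differences ran from 0.39 to 0.59. Of the 10 monocyte markers, all measured, 9 lay above 0, against 42.0% of all 10936 named genes with 1 probe each, with a median of 0.445, and 1 was higher at an unadjusted p under 0.05, against 5.55% of all genes. Their summed level was 85.35 to 104.6 times the 75th percentile in fat-1 blood and 65.66 to 107.2 in wild type blood. Of the 10 neutrophil markers 6 were measured, with a median of 0.012 and summed levels of 482 to 694 and 464 to 622, while CSF3R, CXCR1, CXCR2 and FPR1 had no tested probe under those names. The 5 measured markers of gamma-delta T cells, of 6 listed, were WC1.3, CD163L1, SOX13, TRGC6 and BLK. All 5 were lower at an unadjusted p under 0.05, against 6.37% of all genes, and 0 passed the adjusted threshold in limma. Their median was -1.447, with summed levels of 18.85 to 52.38 in fat-1 and 59.55 to 98.18 in wild type blood. Platelet markers, 5 of 7 measured, were above 0 at 5 of 5 with a median of 0.504 and summed levels of 126.0 to 204.0 and 131.3 to 173.3. T cell markers, 8 of 8 measured, were below 0 at 7 with a median of -0.282 and summed levels of 143.1 to 221.1 and 252.0 to 378.4. Of these 8, 1 was lower at an unadjusted p under 0.05, against 6.37% of all genes. The mean log2 level of the T cell markers overlapped, at 2.607 to 3.171 in fat-1 and 2.925 to 3.531 in wild type blood. Red cell markers, 6 of 7 measured, summed to 530.1 to 1033 and to 98.28 to 1224. B cell markers, 5 of 7 measured, were below 0 at 4 with a median of -0.298. NK cell markers, 5 of 6 measured, were below 0 at 3 with a median of -0.289. Of 5 eosinophil markers 1 was measured, with a difference of 0.551. The part of these cell types in the result was not tested. In whole blood, fewer cells of a type and less RNA per cell cannot be told apart.

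MAP3K7 (TAK1) phosphorylates the IKK complex and the MAP kinase kinases and had differences above 0 at 4 of 4 probes, which share a transcript and are not independent. Probe 1 (chr9:62405905-62405964) stood at -0.60, -0.47 and -0.75 in fat-1 animals and at -1.40, -1.74 and -0.655 in wild type animals. Probe 2 (chr9:62405566-62405624) had -1.93, -1.84 and -2.10 against -2.56, -2.93 and -2.035. At both, wild type replicate 3 stood among the fat-1 animals and the other wild type animals below them. The differences were 0.66 ± 0.295 and 0.55 ± 0.265. They were 0.42 and 0.34 without wild type replicate 2, and 0.96 and 0.79 without wild type replicate 3. At probe 3 (chr9:62402126-62402186) fat-1 animals stood at -2.30, -2.67 and -3.73 and wild type animals at -3.77, -4.05 and -3.39, with a difference of 0.84 ± 0.375. Here fat-1 replicate 3 was below the highest wild type animal, and without it the difference was 1.26. Probe 4, well above background on 5 of the 6 arrays, had 0.30 ± 0.31. Its difference was 0.043 when fat-1 replicate 1 was left out and 0.085 when wild type replicate 2 was. The limma adjusted p of the 4 probes lay between 0.391 and 0.635. With normexp background correction the differences were 0.46, 0.16, 0.12 and -0.23 at probes 1 to 4, so that probe 4 turned sign.

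**Figure D2:**
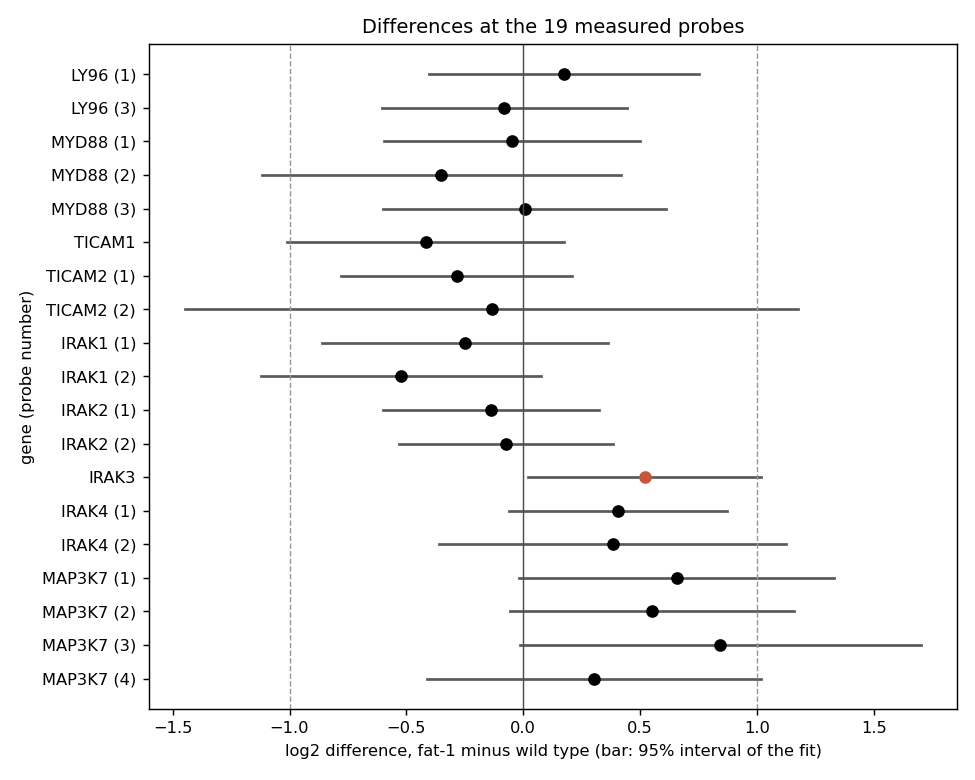
Difference in log2 level, fat-1 minus wild type, at the 19 measured probes (points) with the 95% interval of the limma fit (bars) and dashed lines at a 2-fold change either way. The interval leaves out 0 only at IRAK3 (red), from 0.022 to 1.02, and lies within the dashed lines at 9 of the 19 probes.

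The intervals show what these 6 arrays could bound. At 9 of the 19 probes the 95% interval of the difference lay within 2-fold in either direction, against 60.0% of all probes tested. These were LY96 probes 1 and 3, MYD88 probes 1 and 3, TICAM2 probe 1, IRAK1 probe 1, both measured IRAK2 probes and IRAK4 probe 1. At the other 10, which include all MAP3K7 probes, TICAM1 and IRAK3, a difference of 2-fold was inside the interval.

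**Figure D3:**
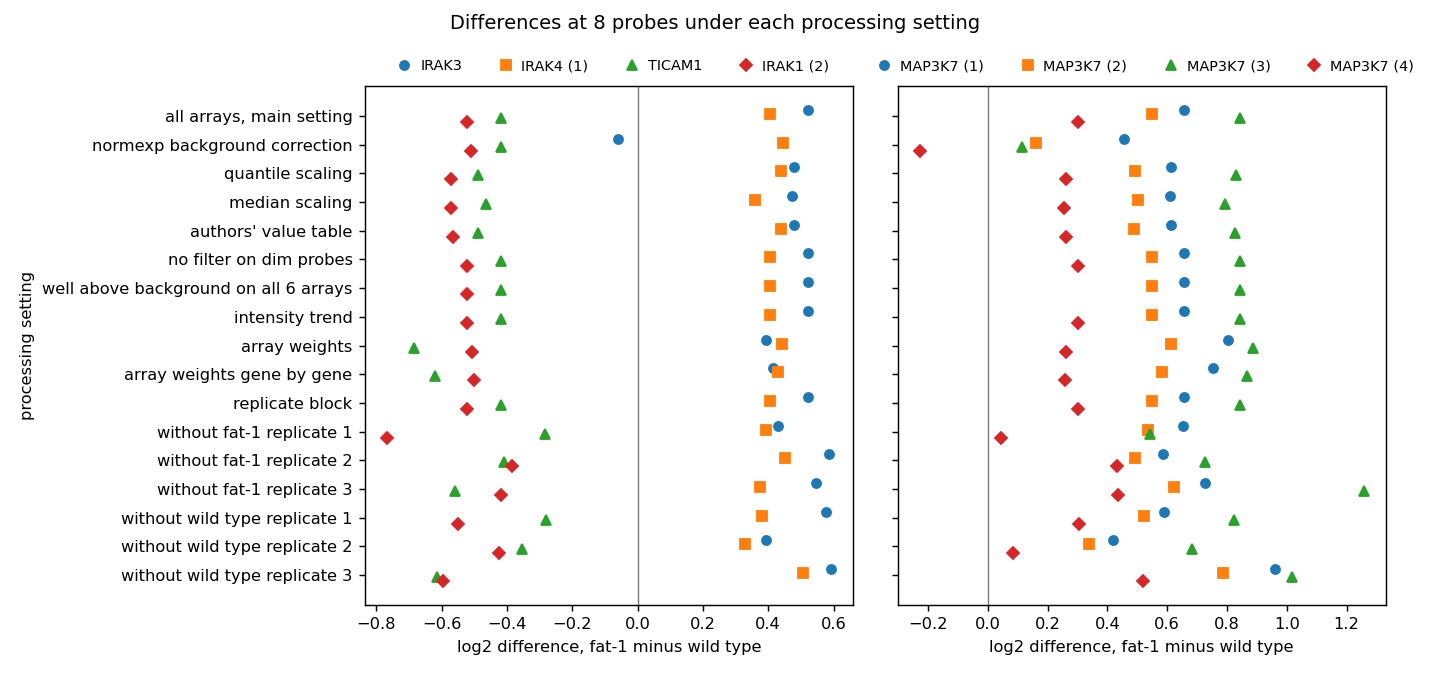
Log2 difference, fat-1 minus wild type (x axes), at 8 member probes under each processing setting (y axis), with IRAK3, IRAK4 probe 1, TICAM1 and IRAK1 probe 2 on the left and the 4 MAP3K7 probes on the right. IRAK3 and MAP3K7 probe 4 cross 0 with normexp background correction, at -0.059 and -0.227, and the other 6 probes keep their sign in all settings shown.

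Inner probes and the probe nearest the 3′ end of a gene deviated differently from animal to animal. For the 6 member genes with at least 2 measured and mapped probes, the deviation of the inner probes from their 6-animal mean was compared with that of the probe nearest the 3′ end. In all 6 genes the inner probes were also dimmer in processed intensity than that probe. Position in the gene and signal level therefore cannot be told apart here, and neither was tested as a cause. In fat-1 replicate 1 the inner probes stood higher in 6 of 6 genes, by a median of 0.46, with 0.94 for TICAM2, 0.64 for IRAK4 and 0.51 for MYD88. In fat-1 replicates 2 and 3 they stood lower in 6 of 6 genes, with medians of -0.17 and -0.29. Wild type animals were mixed, with medians of 0.22, -0.11 and -0.05. Because deviations are taken from the 6-animal mean, the values of a gene balance out over the animals. High values in an animal go with low ones elsewhere, so the animals are not separate observations. Over 5943 other genes with such probes the inner probes stood higher in fat-1 replicate 1 for 71.7%, with a median of 0.12, and in fat-1 replicate 2 for 32.7%, with a median of -0.10. The corresponding shares were 40.3% in fat-1 replicate 3 and 59.4%, 50.4% and 45.0% in wild type replicates 1 to 3. At the inner probes IRAK4 probe 2 and MAP3K7 probes 2, 3 and 4, the differences without fat-1 replicate 1 were 0.042, 0.536, 0.54 and 0.043. At the remaining inner probes they were -0.64 and -0.18 (MYD88 probes 2 and 3), -0.44 (TICAM2 probe 2), -0.77 (IRAK1 probe 2) and -0.17 (IRAK2 probe 2). For IRAK1 probe 2 the limma unadjusted p in that fit was 0.0162 (adjusted p = 0.501). The comparison of inner probes with the probe nearest the 3′ end was chosen after the values were seen.

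**Figure D4:**
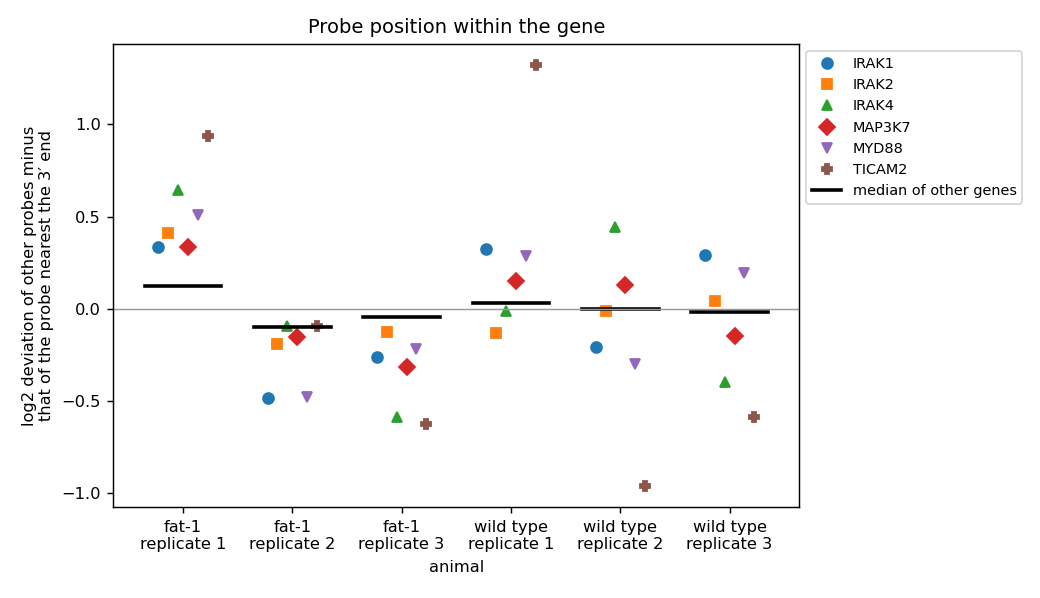
Log2 deviation of the inner probes of a gene from their mean over the 6 animals, minus that of the probe nearest the 3′ end (y axis), in each animal (x axis). Coloured points are 6 member genes and black bars the median of 5943 other genes, and all 6 member genes lie above 0 in fat-1 replicate 1 and below 0 in fat-1 replicates 2 and 3. The values of a gene balance out over the 6 animals, so the animals are not separate observations.

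The rest of the pathway was read from 4 textbook lists, with the brightest tested probe for each gene. Over all 10936 named genes 0.0732% were higher and 0.0914% lower at an adjusted p under 0.05 in limma, and 5.55% and 6.37% at an unadjusted p under 0.05, with a median difference of -0.08 and 42.0% above 0. Of the receptors and coreceptors 19 of 21 were measured, with 0 past the adjusted threshold, 2 higher and 1 lower at an unadjusted p under 0.05 and a median of 0.245. This median was 0.039 without wild type replicate 2 and -0.046 with normexp background correction. TLR5, the flagellin receptor, had a difference of -0.72 ± 0.22 (limma adjusted p = 0.289). TLR3, the receptor for double-stranded RNA that signals through TICAM1, had 0.63 ± 0.21 (limma adjusted p = 0.320), with 0.71 and 0.42 at its other tested probes.

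Downstream of the members, 31 of 32 signalling genes were measured, with 0 past the adjusted threshold in limma, 0 higher and 1 lower at an unadjusted p under 0.05 and a median of 0.006. MAP2K6, a kinase that activates p38, had -0.56 ± 0.205, and MAPK8 (JNK1) had 0.61 ± 0.28. Among negative regulators 21 of 24 were measured, with 0 past the adjusted threshold, 0 higher and 5 lower at an unadjusted p under 0.05 and a median of -0.26. This median was -0.068 without wild type replicate 2 and -0.109 with quantile scaling, and 2 of these genes passed the adjusted threshold with normexp background correction, with median scaling and with an intensity trend. NFKBIA, the inhibitor that holds NF-kB in the cytoplasm, had -1.58 ± 0.25 (limma adjusted p = 0.0729), with -1.215 to -1.505 at 3 other probes, and TNFAIP3 (A20), the deubiquitinase that ends the signal, had -1.73 ± 0.32 (limma adjusted p = 0.103). Of the inducible targets 20 of 25 were measured, with 0 past the adjusted threshold, 0 higher and 7 lower at an unadjusted p under 0.05 and a median of -0.113. The median was -0.023 without wild type replicate 2 and -0.038 without fat-1 replicate 1. With normexp background correction, with an intensity trend or over probes above background on all 6 arrays, 3 of the targets passed the adjusted threshold. ICAM1, an adhesion molecule, had -1.39 ± 0.23 (limma adjusted p = 0.0774), with -0.32 at its other tested probe. The neutrophil chemokine listed as CXCL2 had -2.74 ± 0.48 (limma adjusted p = 0.0866). Its counted probe is named CXCL2 on the array and GRO1 in RefSeq. At a dimmer probe with the same names the difference of -2.93 passed (limma adjusted p = 0.0486). The probe with the current symbol CXCL2 had -2.72 and did not pass (limma adjusted p = 0.143). The last 2 lists hold genes already known to be lower in these animals when the lists were written, so their counts are a description. These 4 genes are the ones with the smallest p of their lists, and 6 of the 21 negative regulators and 9 of the 20 targets had differences above 0.

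**Figure D5:**
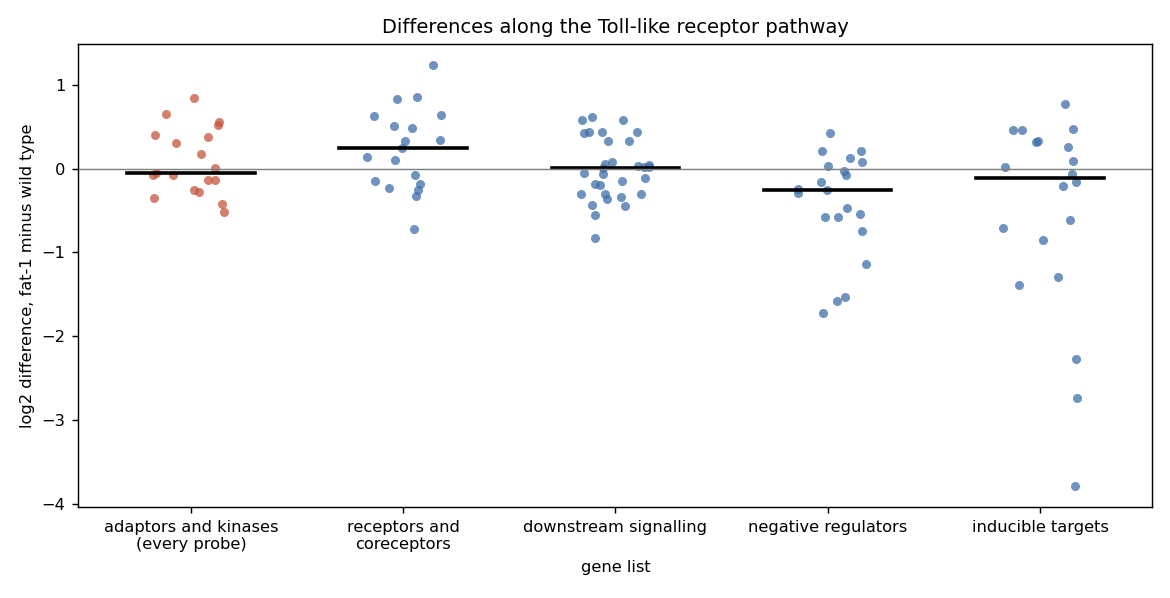
Log2 difference, fat-1 minus wild type (y axis), for the 19 member probes (red) and for the genes of 4 pathway lists, 1 probe a gene (blue), with a black bar at each median (x axis, list). Member probes lie between -0.52 and 0.84, while negative regulators and inducible targets reach below -1.

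The probes whose values over the 6 animals were most like those of IRAK3 were those of MACF1, a linker of actin and microtubules, OCIAD1 and RBBP5, with Pearson r of 0.994, 0.992 and 0.992 over 6 arrays. This is a ranking among 21350 named probes on few animals, and 132 of them had an r above 0.95.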

How the data were processed

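The scanner files hold spot intensity as deposited, and per the submitters' processing notes the software was Agilent Feature Extraction, version 10.7.1.1. The processed intensity is background-subtracted and detrended, and not scaled between arrays, per the file headers. Flags for spots (other columns) were used as deposited. The authors' deposited value table holds log2 values with equal distributions, and was an alternative. Column against scanner values gave an r of at least 0.999 within an array and at most 0.986 between arrays, and each column had a median of 6.38.

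Processed intensity was taken to log2 minus the array's 75th percentile (613 to 1067). Spots of a probe were averaged, outlier probes (48) were left out, and those above background (the scanner's flag) on 3 or more of 6 arrays were tested with lmFit and eBayes (limma 3.58.1, R 4.3.3), the group as the only term, adjusted over all 26810 probes. The fit was tested on simulated data. Precision is limited by the 3 animals per group. Members and lists were chosen with earlier results of these data known. Every member probe is named; of each list up to 4 genes past the threshold, otherwise the 2 with the smallest p, and for likeness the 3 named probes with the highest r to the member probe of smallest p. Current symbols came from RefSeq accessions (ARS-UCD2.0), which matched 19 of the 22 member probes.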

Additional observations from a re-analysis of the deposited data

How the results depend on the processing

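The count of 0 member probes past an adjusted p of 0.05 in limma held in every setting run except 1, array weights with the default estimate, where 9 passed. That estimate did not converge and gave wild type replicate 1 a weight of 239, against 0.146 to 0.632 for the other arrays. With weights estimated gene by gene, an alternative added after seeing the data, 0 passed and 9 had an unadjusted p under 0.05. Over all probes 46 passed, against 116 with normexp background correction, 16 with quantile scaling, 16 in the authors' value table, 125 with median scaling, 14 with no filter on dim probes, 121 with an intensity trend, 8077 with array weights and 1052 with weights gene by gene. Leaving out 1 animal gave 8 to 55, the lowest without fat-1 replicate 1. Member probes at an unadjusted p under 0.05 numbered 1, and 0 with normexp, 4 with quantile scaling and 6 without wild type replicate 3. Of all probes, 12.8% were under it in the main fit, and this was not counted for the other settings. At IRAK3, a limma unadjusted p of 0.042 in the main fit went with an adjusted p of 0.3805. In the last fit named, 0.039 went with 0.1965. At IRAK1 probe 2 with weights gene by gene, 0.038 went with 0.143. A lower adjusted p at a like unadjusted p means more small p over all probes, so these counts do not set the members apart. The replicate number as a block gave 105 probes over all and 0 members. Deviations of same-numbered animals correlated at 0.118, 0.185 and 0.006, and those of differently numbered animals at -0.206 to 0.077. The labels do not name pairs, and the numbers were not read as pairs. Genes of the negative regulator and target lists past the adjusted threshold numbered 0 and 0, 1 and 3 over probes above background on all 6 arrays, 2 and 2 with median scaling, 0 and 2 with the replicate block and 3 and 5 with weights gene by gene. With the default array weights they numbered 7 and 8, and 5 each in the receptor and downstream lists.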
